A study of Homo sapiens with 6 samples.

Results

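Small nucleolar RNA host genes are genes whose introns carry small nucleolar RNAs (snoRNAs), and they were taken here as every gene of the deposited table whose symbol is SNHG followed by digits, together with GAS5. The rule found 29 genes among 60612 table entries, which carry 50229 different symbols. Of these 29, 21 reached at least 0.5 FPKM (fragments scaled to transcript length and library size) in at least 3 libraries and were tested with 13748 genes in all. The other 8 are given by their levels below. The study knocked down EIF4G2, a translation initiation factor related to EIF4G1, in Hep3B, a human line from hepatocellular carcinoma. Small interfering RNAs were used at 50 nM, directed at EIF4G2 for the 3 siEIF4G2 libraries and a control sequence for the 3 siNC libraries. Poly(A) RNA was sequenced, and the labels give no harvest time and no other genetic change in either group. Nor do they state whether the 3 libraries of a group stem from separate cultures. The p-values therefore reflect library-to-library spread alone, and this spread may be technical.

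As background, the introns of a host gene are excised and trimmed to release the snoRNA, which joins a set of core proteins in the nucleolus. Box C/D snoRNAs guide 2′-O-methylation of ribosomal RNA, H/ACA snoRNAs guide pseudouridylation or take part in its cleavage, and the related scaRNAs act on spliceosomal RNAs in Cajal bodies. The spliced exons of many hosts begin with a 5′ terminal oligopyrimidine run, a C followed by further C or T bases that also begins messenger RNAs of ribosomal proteins, and many are translated for a short stretch and then removed by nonsense-mediated decay. GAS5 is known for accumulating in growth-arrested cells.

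Deposited counts summed to 63351653 to 72863628 per library, and mitochondrial genes took 8.03% to 9.02% of them. Levels are given below as CPM, a share of the TMM-adjusted library total computed in edgeR. EIF4G2 was at 178, 180 and 199.8 CPM in siEIF4G2 replicates 1, 2 and 3 and at 1103, 913 and 998 CPM in the siNC libraries. Its groups did not overlap, the log2 fold change was -2.43 (SE 0.09, edgeR adjusted p = 0.000207), and the exact two-sided permutation test gave p = 0.1, the smallest that 3 against 3 allows. The labelled cell type was not matched by its defining genes. Of 12 hepatocyte and hepatoma markers, 8 were at 0 in all 6 libraries, ALB, AFP, APOB and GPC3 among them, and all 12 stayed under 1 CPM, while KRT8, KRT18 and VIM were at 615 CPM or more in every library. The other epithelial markers EPCAM and CDH1 stayed at or under 0.0568 and 0.452 CPM. Summed CPM of the hepatocyte list was 0.124 to 0.363 in siEIF4G2 and 0.0597 to 0.248 in siNC. Among markers of other cell types, the summed 3-gene endothelial list was at 3.33 to 4.12 CPM in siEIF4G2 and 10.1 to 10.9 in siNC, nearly all of it CDH5. The summed 4-gene hematopoietic list was at 19.2 to 25.0 CPM against 31.3 to 36.7, nearly all of it CD68, with PTPRC and CD3E at 0. The summed 4-gene adipocyte list was at 0 in the siEIF4G2 libraries and at 0.184 to 0.209 CPM in siNC, with ADIPOQ and LEP at 0 in all 6. The summed 4-gene epithelial list was at 1976 to 2220.0 CPM against 2269 to 2324, nearly all of it KRT8 and KRT18, and the summed 4-gene mesenchymal list at 786 to 829 against 826 to 894. In the latter list, mean PDGFRB was 10.7 CPM against 24.5 and mean COL1A1 73.4 against 99.0, while COL1A2 stayed at or under 1.67 CPM. The part of these shifts in the results below was not tested. In bulk RNA, fewer cells of a type and less RNA per cell cannot be told apart.

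The starts of the host genes are shown because a pyrimidine run at the first base is the sequence feature that host genes and ribosomal protein genes are known to share. Each stretch is 40 bases of the RNA-like strand from RefSeq on GRCh38.p14, with 16 bases before the annotated start and 24 from it on. Capitals mark a run of C followed by at least 4 further C or T bases whose first base lies within 5 bases of the annotated start, searched on the gene's strand only. This definition was chosen after the sequences were seen.
SNHG4: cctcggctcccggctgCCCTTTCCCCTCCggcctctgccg
SNHG12: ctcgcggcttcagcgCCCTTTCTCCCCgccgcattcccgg
SNHG19: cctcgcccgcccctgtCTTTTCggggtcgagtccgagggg
SNHG7: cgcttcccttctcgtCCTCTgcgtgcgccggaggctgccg
SNHG8: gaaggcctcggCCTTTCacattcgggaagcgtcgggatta
SNHG32: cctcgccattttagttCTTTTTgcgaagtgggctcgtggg
SNHG1: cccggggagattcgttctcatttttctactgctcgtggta
SNHG3: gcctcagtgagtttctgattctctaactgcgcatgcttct
SNHG4 (chr5:139274085-139274124, plus strand) had the longest run printed, 13 bases from the annotated start. SNHG12 (chr1:28581850-28581889, minus strand) had 12 bases. SNHG19 (chr16:2155335-2155374, minus) and SNHG32 (chr6:31834900-31834939, plus) had 6 bases each, SNHG7 (chr9:136728161-136728200, minus) had 5, and SNHG8 (chr4:118278746-118278785, plus) had 6 that begin 5 bases before the start. SNHG1 (chr11:62855862-62855901, minus) and SNHG3 (chr1:28505927-28505966, plus) had no run within this window by this definition.

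Among 27305 RefSeq promoters, 21.1% held such a run at the start, and among the 9375 promoters of tested genes 22.8% did. Promoter sequences were found for 25 of the 29 host genes, and 11 of them (44.0%) held a run. The share was 60.0% (21 of 35) for protein-coding hosts of snoRNAs and 86.7% (13 of 15) for the ribosomal protein genes among those. Across all tested genes the share was 24.5% among those higher after knockdown and 22.2% among those lower. Of the tested host genes, 9 held a run and had a median log2 fold change of 0.52 (range -0.36 to 1.55), with 5 called higher. The 8 without a run had a median of 0.32 (range 0.05 to 0.98), also with 5 called higher. The ranges of these 2 sets of host genes overlapped, and each held 5 genes called higher. Only the first-listed RefSeq start of a gene was searched, and it can differ from that of the deposited table. The stretches of GAS5 (chr1:173869022-173869061) and SNHG10 (chr14:95534849-95534888), without a run, lay beyond their table intervals, which end at 173868882 and 95534618. For SNHG32, with a run, the table interval starts at 31834608. A gene scored without a run may hold one at another start.

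SNHG4, SNHG3, SNHG7, SNHG19, SNHG1, SNHG8, SNHG10, SNHG12, SNHG6, GAS5 and SNHG29 were higher in the siEIF4G2 libraries, and SNHG32 was lower. That is 11 higher and 1 lower of 21 tested (57.1% called, 52.4% called higher) by edgeR's quasi-likelihood test at an adjusted p of 0.05. Over all tested genes 33.4% were called, 15.9% as higher and 17.6% as lower, so the share of host genes called higher was above that background and the share called lower was below it. The other 9 did not pass, and all 9 of their log2 fold changes were above 0. The median log2 fold change of the 21 was 0.45 (range -0.36 to 1.55), and the median of all tested genes was 0.01. At least 1.5-fold higher and past the test were 7 of 21 host genes, while 4.64% of all tested genes were. Every siEIF4G2 library lay above every siNC library for 13 host genes (25.0% of all tested genes) and below for 1 (25.6%), and the groups overlapped for 7.

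**Figure D1:**
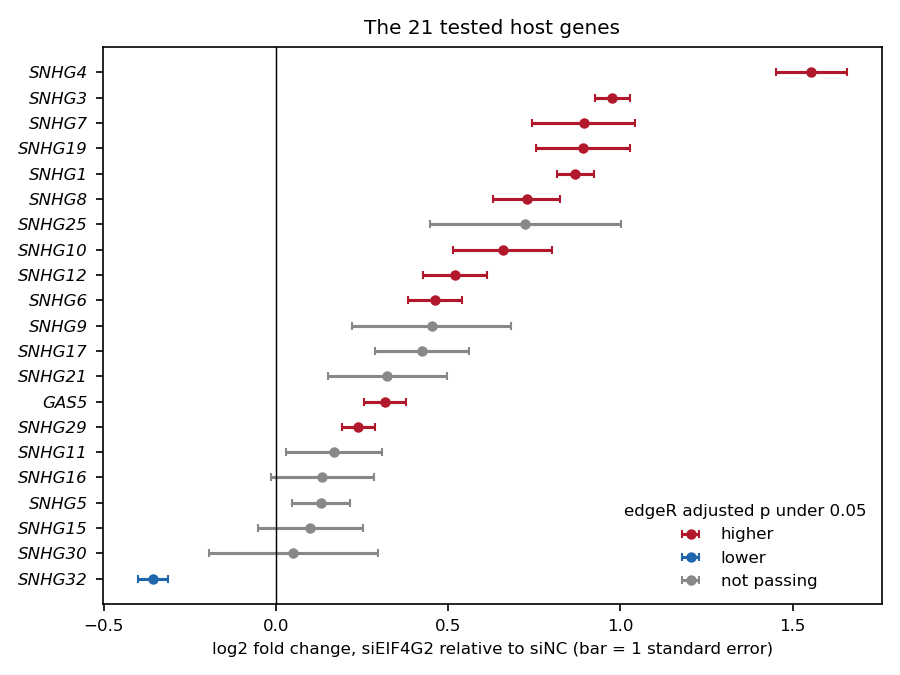
Log2 fold change (siEIF4G2 relative to siNC, horizontal axis) of the 21 tested host genes, with bars of 1 SE and colours for the edgeR call at an adjusted p of 0.05. SNHG4 stands farthest to the right at 1.55, 11 genes are called higher, and SNHG32 alone is called lower at -0.36.

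Host genes differed widely in abundance. On the FPKM scale, which accounts for length, the mean over the 6 libraries was highest for SNHG32 (43.7 FPKM), SNHG6 (37.0), SNHG29 (33.6), SNHG19 (23.7), GAS5 (14.7) and SNHG3 (12.1), and lowest among the tested for SNHG17 (0.884), SNHG10 (0.826) and SNHG11 (0.787). Both the rise of SNHG10 and that of SNHG6 passed the test, so calls were made at either end of this order. SNHG32, the host gene of highest mean FPKM, was the one that fell. By CPM the order differed: SNHG29 was at 312 CPM in siEIF4G2 and 265 in siNC, beside 82.6 and 105.9 for SNHG32.

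Of the 10 host genes that hold only H/ACA snoRNA entries, 8 were tested, and 4 were higher and 0 lower. The share called higher was 50.0%, beside 15.9% of all tested genes, with 17.6% lower. All 8 log2 fold changes were above 0, and the median was 0.59 (range 0.10 to 1.55). SNHG4 (ENSG00000281398, chr5:139274102-139283244, GRCh38, plus strand) carries SNORA74A and rose most. It was at 61.8, 63.8 and 71.3 CPM in the siEIF4G2 libraries and at 19.8, 24.8 and 22.5 CPM in siNC. All 3 siEIF4G2 libraries were high, the groups were far apart, and the rise was 2.94-fold (log2 1.55, SE 0.10, edgeR adjusted p = 0.000407). SNHG3 (ENSG00000242125, chr1:28505980-28510892, plus strand), host of the U17 snoRNAs SNORA73A and SNORA73B, which act in ribosomal RNA cleavage, was at 79.7, 79.2 and 74.7 CPM against 40.7, 39.3 and 38.8. The libraries of each group lay close together and the rise was 1.97-fold (log2 0.98, SE 0.05, edgeR adjusted p = 0.000263). SNHG7 (ENSG00000233016, chr9:136721366-136728184, minus strand), host of SNORA17A and SNORA17B, was at 21.8, 21.2 and 20.6 CPM against 10.3, 14.1 and 9.83. Its groups did not overlap, siNC replicate 2 was the highest of the controls, and the rise was 1.86-fold (log2 0.89, SE 0.15, edgeR adjusted p = 0.0066). SNHG8 (ENSG00000269893, chr4:118278709-118285316, plus strand), host of SNORA24, was at 11.3, 12.4 and 10.8 CPM against 6.57, 7.24 and 7.04. Its groups were again apart, with a 1.66-fold rise (log2 0.73, SE 0.10, edgeR adjusted p = 0.00309).

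SNHG17, SNHG9, SNHG11 and SNHG15, the other tested H/ACA hosts, did not pass the test. SNHG17 was at 14.7, 14.9 and 14.6 CPM in siEIF4G2 and 9.40, 13.2 and 10.4 CPM in siNC. Its groups did not overlap (log2 0.42, SE 0.14, edgeR adjusted p = 0.0585), and without siNC replicate 2, the highest control, the adjusted p was 0.0160. SNHG9 was at 2.13 ± 0.403 CPM (SD, n = 3) against 1.56 ± 0.327, and SNHG11 at 4.69 ± 0.373 against 4.17 ± 0.528, with overlapping groups. SNHG15 was at 20.2, 16.1 and 24.1 CPM against 19.5, 19.5 and 17.4, so siEIF4G2 replicate 2 was the lowest and replicate 3 the highest of all 6 libraries. Its sign was not stable either: the log2 fold change was 0.10, and -0.05 without siEIF4G2 replicate 3.

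**Figure D2:**
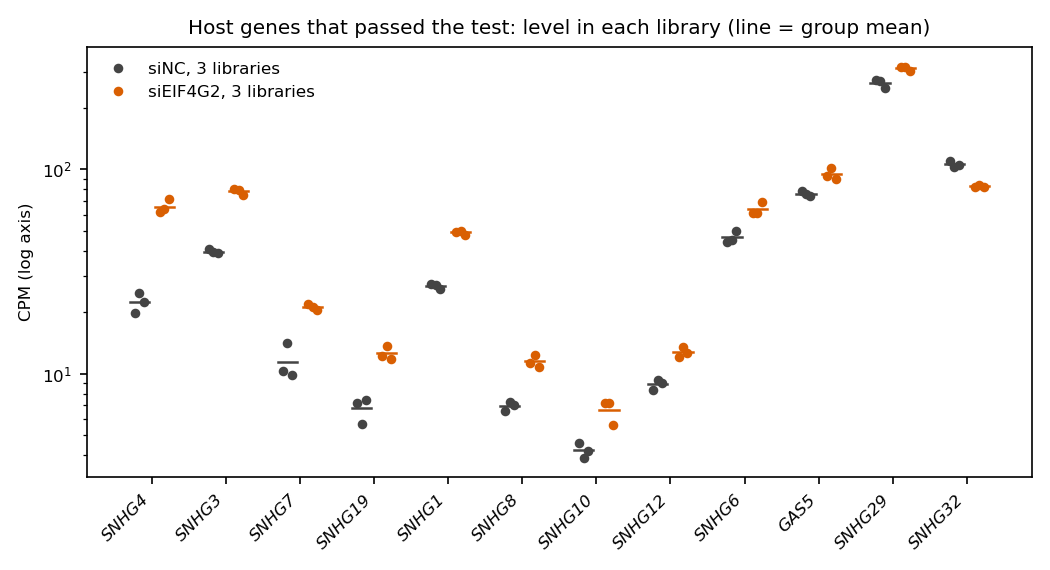
CPM of the 12 host genes that passed the test (logarithmic vertical axis), with 3 siNC and 3 siEIF4G2 libraries as points and a line at each group mean. SNHG4 has siEIF4G2 points at 61.8 to 71.3 and siNC points at 19.8 to 24.8, and SNHG32 is the 1 gene whose siEIF4G2 points lie below.

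Of the 11 host genes that hold only box C/D entries, 8 were tested, and 4 were higher and 1 lower. The share called higher, 50.0%, was the same as for H/ACA hosts, beside 15.9% of all tested genes, with 17.6% lower. The median log2 fold change was 0.19 (range -0.36 to 0.89). SNHG1 (ENSG00000255717, chr11:62851984-62855953, minus strand) carries 7 SNORD entries, SNORD22, SNORD27 and SNORD30 among them. It was at 49.6, 50.2 and 47.5 CPM in siEIF4G2 and at 27.4, 27.1 and 26.1 CPM in siNC. Within-group differences were small beside the gap, and the rise was 1.83-fold (log2 0.87, SE 0.05, edgeR adjusted p = 0.000376). SNHG19 (ENSG00000260260, chr16:2154797-2155358, minus strand), host of SNORD60, was at 12.3, 13.7 and 11.8 CPM against 7.21, 5.66 and 7.46. Its groups did not overlap, with a 1.85-fold rise (log2 0.89, SE 0.14, edgeR adjusted p = 0.00485). SNHG6 (ENSG00000245910), host of SNORD87, was at 61.0, 61.3 and 69.3 CPM against 44.3, 44.9 and 50.0. Replicate 3 was the highest of each group, the groups were apart, and the rise was 1.38-fold (log2 0.46, SE 0.08, edgeR adjusted p = 0.00697). SNHG29 (ENSG00000175061, chr17:16438767-16473090, plus strand), host of SNORD49A, SNORD49B and SNORD65, was at 316, 318 and 303 CPM against 273, 269.5 and 251. It had the smallest of the rises that passed, 1.18-fold (log2 0.24, SE 0.05, edgeR adjusted p = 0.0126), although its groups did not overlap.

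SNHG32 (ENSG00000204387, chr6:31834608-31839764, plus strand), host of SNORD48 and SNORD52, went the other way. It was at 82.2, 83.3 and 82.3 CPM in siEIF4G2 and at 109.8, 102.5 and 105.3 CPM in siNC. All 3 siEIF4G2 libraries lay below all controls, and the fall was 1.28-fold (log2 -0.36, SE 0.04, edgeR adjusted p = 0.00232). SNHG16, host of the SNORD1 snoRNAs, was at 45.2, 64.5 and 58.7 CPM against 45.8, 50.6 and 57.0. The groups overlapped, with siEIF4G2 replicate 1 the lowest and replicate 2 the highest of all 6 (log2 0.13, SE 0.15, edgeR adjusted p = 0.531). SNHG5, host of SNORD50B, was at 17.8, 19.6 and 16.7 CPM against 16.2, 16.8 and 16.3. SNHG30, host of SNORD7, was at 15.4 ± 4.86 CPM (SD, n = 3) against 14.9 ± 1.31, and its log2 fold change of 0.05 was -0.13 without siEIF4G2 replicate 1 and -0.04 without siEIF4G2 replicate 2. Neither SNHG5 nor SNHG30 passed, and both had overlapping groups.

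SNHG12 and SNHG25 hold entries of both kinds, SNHG10 and SNHG21 hold a scaRNA, and GAS5, a classical box C/D host, holds none in the table as analysed here. SNHG12 (ENSG00000197989, chr1:28578538-28581878, minus strand), host of SNORD99 and SNORA44, was at 12.1, 13.5 and 12.7 CPM in siEIF4G2 and at 8.33, 9.33 and 9.01 CPM in siNC. Its groups were apart, with a 1.43-fold rise (log2 0.52, SE 0.09, edgeR adjusted p = 0.00852). GAS5 (ENSG00000234741, chr1:173858559-173868882, minus strand) was at 92.6, 101.7 and 89.9 CPM against 78.7, 75.4 and 74.3. It rose 1.24-fold (log2 0.32, SE 0.06, edgeR adjusted p = 0.0108), and its groups did not overlap. SNHG10 (ENSG00000247092, chr14:95521943-95534618, minus strand), host of SCARNA13, was at 7.2, 7.19 and 5.60 CPM against 4.60, 3.88 and 4.19. It rose 1.58-fold (log2 0.66, SE 0.14, edgeR adjusted p = 0.0165), but the adjusted p was 0.0518, 0.0565 and 0.0505 without siEIF4G2 replicate 1, siNC replicate 2 and siNC replicate 3. SNHG25, at 0.480 ± 0.0844 CPM (SD, n = 3) against 0.290 ± 0.0599, had groups apart (log2 0.72, SE 0.28, edgeR adjusted p = 0.0938). SNHG21, at 6.02 ± 0.906 CPM against 4.81 ± 0.737, had overlapping groups. Neither passed the test.

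The 8 host genes below the filter were mostly of low level, and none passed edgeR's test when it was run without the filter. SNHG18 and SNHG27 were at 0 in all 6 libraries, which allows up to 3 counts, 0.0403 to 0.0466 CPM depending on the library, for counting error only. SNHG14, the long host of imprinted snoRNA clusters on chromosome 15, had 2803 to 3704 counts but only 0.274 to 0.369 FPKM. Its interval spans 441754 bases. It was at 49.9 ± 3.42 CPM (SD, n = 3) against 44.6 ± 3.26 (log2 0.17, edgeR adjusted p = 0.244 without the filter). SNHG20, host of SCARNA16, was at 3.34, 3.13 and 3.45 CPM against 9.97, 2.30 and 2.92, so siNC replicate 1 alone was high (edgeR adjusted p = 0.505 without the filter). SNHG26 was at 0.321 to 1.52 CPM over the 6 libraries, SNHG28 at 0 to 1.34, SNHG22 at 0.0155 to 0.355 and SNHG31 at 0.0933 to 0.383. Both groups of each overlapped, except those of SNHG28, whose siEIF4G2 libraries all lay below the siNC ones. Without the filter, edgeR gave adjusted p = 0.44, 0.377, 0.71 and 0.976 for SNHG26, SNHG28, SNHG22 and SNHG31.

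Many host genes share bases with other genes, and no source states that counting used strand, so reads in shared bases cannot be told apart. Of the 21 tested, 7 shared no base with another gene outside small RNAs (SNHG1, SNHG9, SNHG11, SNHG15, SNHG17, SNHG19 and SNHG25), and 2 of these, SNHG1 and SNHG19, were higher and 0 lower, all 7 having log2 fold changes above 0. Of these 7, 28.6% were called, beside 33.4% of all tested genes, and 28.6% were called higher, beside 15.9%. Of the 14 that share bases, 9 were higher (64.3%) and 1 was lower, with 71.4% called in either direction. The median log2 fold change was 0.45 for the 7 and 0.39 for the 14. SNHG3 lies wholly within RCC1, a nuclear exchange factor for Ran, on the same strand. RCC1 was at 76.9, 76.0 and 117.7 CPM in siEIF4G2 and at 48.5, 70.5 and 64.3 CPM in siNC, so siEIF4G2 replicate 3 stood out where that of SNHG3 did not (RCC1 log2 0.56, SE 0.22, edgeR adjusted p = 0.0971). The RCC1 groups were apart, with siEIF4G2 above as for SNHG3, and DESeq2 called it higher (adjusted p = 0.0298). SNHG12 shares 8 bases with TRNAU1AP, a selenocysteine tRNA associated protein gene on the opposite strand, which was lower (log2 -0.51, SE 0.09, edgeR adjusted p = 0.00651). SNHG29 and LRRC75A overlap on opposite strands, and LRRC75A was at 4.07 ± 1.40 CPM (SD, n = 3) against 6.42 ± 0.864 (log2 -0.66, edgeR adjusted p = 0.116). AC093484, within SNHG29 on the opposite strand, was at 0.861 ± 0.102 CPM (SD, n = 3) against 0.547 ± 0.119. Its groups were apart without an edgeR call (log2 0.65, adjusted p = 0.0793). By limma on log2(FPKM + 1) and log2(FPKM + 0.1) it was called higher (adjusted p = 0.0274 and 0.0297). SNHG32 shares 5112 bases on its own strand with AL671762, which had 404 counts in siEIF4G2 replicate 2 and 0 in the other 5 libraries. GAS5-AS1, opposite GAS5, was at 0.461 ± 0.0881 CPM (SD, n = 3) against 0.589 ± 0.0881, and GLRX5, opposite SNHG10, was at 51.4 ± 1.61 against 47.1 ± 1.26, neither passing the test. The genes opposite SNHG6, SNHG7 and SNHG8 (MCMDC2, DIPK1B and PRSS12) were below the filter. So was ZBTB37, which shares 801 bases with GAS5 on the opposite strand. ZBTB37 had 690, 80 and 109 counts in siEIF4G2 and 676, 587 and 296 in siNC. Among genes sharing bases with host genes that were not called, UBE3A (SNHG14) and AC105339 (SNHG21) were higher by edgeR. SEC14L1 (SNHG20), MYO5B (SNHG22) and AL590560 (SNHG28) were lower. The calls of AC105339 and SEC14L1 were lost in some fits without 1 library. These genes were named after their values were seen.

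SNHG4 lies wholly within an entry of MATR3, a nuclear matrix RNA-binding protein gene on the same strand. That entry was at 20.2, 292 and 255 CPM in siEIF4G2 and at 283, 10.1 and 208.5 CPM in siNC. The second MATR3 entry moved opposite to it, at 416, 141 and 169 CPM against 27.5, 281 and 144. Their sum was steady within groups, at 436, 433 and 424 CPM against 310.2, 291 and 352, and higher in siEIF4G2 (log2 0.44, edgeR adjusted p = 0.00654 with entries of a symbol summed). SNHG4 was at 61.8, 63.8 and 71.3 CPM against 19.8, 24.8 and 22.5 in the same libraries, and its groups stayed apart. Both SNHG4 and the summed MATR3 entries were higher in siEIF4G2, and reads in the shared bases cannot be told apart. The part of such reads in the rise of SNHG4 was not tested.

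SnoRNA entries of the table are shown with their sequences because their intervals lie inside the introns or exons of these hosts and can be read against them. Sequences are from GENCODE 29 on GRCh38, printed 5′ to 3′ on the RNA strand as DNA. Capitals mark box C (TGATGA) with a later box D (CTGA), found in 76.3% of 278 SNORD transcripts, or an ACA 3 bases before the end, found in 76.2% of 147 SNORA transcripts; only the RNA strand was searched.
SNORD30: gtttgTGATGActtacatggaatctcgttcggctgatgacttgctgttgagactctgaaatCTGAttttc
SNORD22: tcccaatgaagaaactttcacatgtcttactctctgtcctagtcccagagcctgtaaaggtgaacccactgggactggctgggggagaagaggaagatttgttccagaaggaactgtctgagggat
SNORA24: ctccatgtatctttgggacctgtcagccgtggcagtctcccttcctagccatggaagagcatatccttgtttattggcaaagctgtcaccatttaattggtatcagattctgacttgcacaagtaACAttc
SNORA73B: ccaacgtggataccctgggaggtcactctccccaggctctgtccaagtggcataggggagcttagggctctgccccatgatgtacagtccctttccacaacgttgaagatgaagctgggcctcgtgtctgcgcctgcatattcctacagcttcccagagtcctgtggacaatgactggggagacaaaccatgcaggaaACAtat
SNORD30 (chr11:62853663-62853732, minus strand) and SNORD22 (chr11:62852910-62853035, minus strand) lie in SNHG1, SNORA24 (chr4:118279190-118279320, plus strand) in SNHG8, and SNORA73B (chr1:28508559-28508762, plus strand) in SNHG3. SNORD22 holds no TGATGA, so no pair was marked in it, although a CTGA lies near its end.

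In all, 134 such entries lay within 27 host genes, 83 of them in SNHG14, and all on the host's strand. Poly(A) selection does not capture mature snoRNAs as such, and 61 entries were at 0 in all 6 libraries, 57 of them in SNHG14. The highest group mean was 2.27 CPM. Another 22 entries had 1 or 2 counts in every library. Only 15 entries in 11 hosts passed the filter, of which 5 were called higher, 1 lower and 9 neither, beside the background of 15.9% higher and 17.6% lower. The 1 lower, SNORD22, could pass the filter through its siNC libraries alone. What reads in these entries come from, snoRNA, intron or exon of the host, cannot be told apart in these counts.

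SNORD30 was at 1.65, 1.38 and 1.57 CPM in siEIF4G2 and at 0.627, 0.762 and 0.468 CPM in siNC, a 2.48-fold rise with groups apart (log2 1.31, SE 0.23, edgeR adjusted p = 0.00767). It and its host SNHG1 were both higher. SNORD22 (ENSG00000277194), in the same host, had 2, 4 and 1 counts against 144, 129 and 196, the reverse of its host (edgeR adjusted p = 0.00043). The filter asks for 3 libraries, which the 3 siNC libraries of SNORD22 could meet alone. Its entry into the test thus came through the group where it was high, and its call carries that limit. With 1 to 4 counts a library in siEIF4G2, near the 3-count limit, the size of the difference is poorly fixed: the log2 fold change of SNORD22 was fitted at -5.98 and lay between -6.60 and -3.71 over the alternatives. A second SNORD22 entry in SNHG1 (ENSG00000278527) had 2 counts in every library. SNORD27, also in SNHG1, had 156, 1 and 104 counts against 45, 1 and 57, with replicate 2 at 1 count in both groups, and did not pass. Some entries below the filter were at 1 count in every library except 1. SNORD26 in SNHG1 had 64 counts in siNC replicate 3, SNORD50B in SNHG5 had 22 in siNC replicate 2, and SNORD116-4 in SNHG14 had 33 in siNC replicate 3. Whether the difference of SNORD22 is of this kind was not tested.

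SNORA73B in SNHG3 was at 0.927, 1.47 and 0.917 CPM against 0.336, 0.582 and 0.553 (log2 1.17, SE 0.32, edgeR adjusted p = 0.0345), in the direction of its host. SNORA24 in SNHG8 (log2 0.91, edgeR adjusted p = 0.0434), SNORD87 in SNHG6 (log2 0.87, adjusted p = 0.0175) and SNORD104 in SNHG25 (log2 0.69, adjusted p = 0.0315) were also higher. These 4 calls did not all hold when a library was left out. For SNORA73B and SNORD104 the call was lost without any 1 of the 6 libraries, with adjusted p of 0.0549 to 0.0840 and 0.0569 to 0.0928. For SNORA24 it was lost without each library other than siEIF4G2 replicate 1, at 0.0729 to 0.12, and for SNORD87 without siEIF4G2 replicate 1 (0.0531) or siNC replicate 1 (0.0507). With all 6 libraries, SNORA24 was also not called by DESeq2 (adjusted p = 0.0588) or limma-voom (0.0611), and without the filter edgeR called none of SNORA24 (0.105), SNORA73B (0.0685) and SNORD104 (0.0862). SNORD48 in SNHG32, the host that fell, was at 0.278 ± 0.0560 CPM (SD, n = 3) against 0.156 ± 0.0239, with groups apart and no call by edgeR (log2 0.83, SE 0.31, adjusted p = 0.0888). It was called higher by limma on log2(FPKM + 1) and log2(FPKM + 0.1), with adjusted p = 0.0283 and 0.0282. The log2 fold changes of the 8 others that did not pass edgeR's test lay between -0.23 and 1.33, namely SNORD27, SNORA50C, SNORA17B, SNORA71A, SNORD7, SNORA44, SNORA78 and SNORD99. Of these, SNORA50C was called higher by limma on log2(FPKM + 1) and log2(FPKM + 0.1), with adjusted p = 0.0140 and 0.0178, and by edgeR without siNC replicate 3 (adjusted p = 0.0446).

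**Figure D3:**
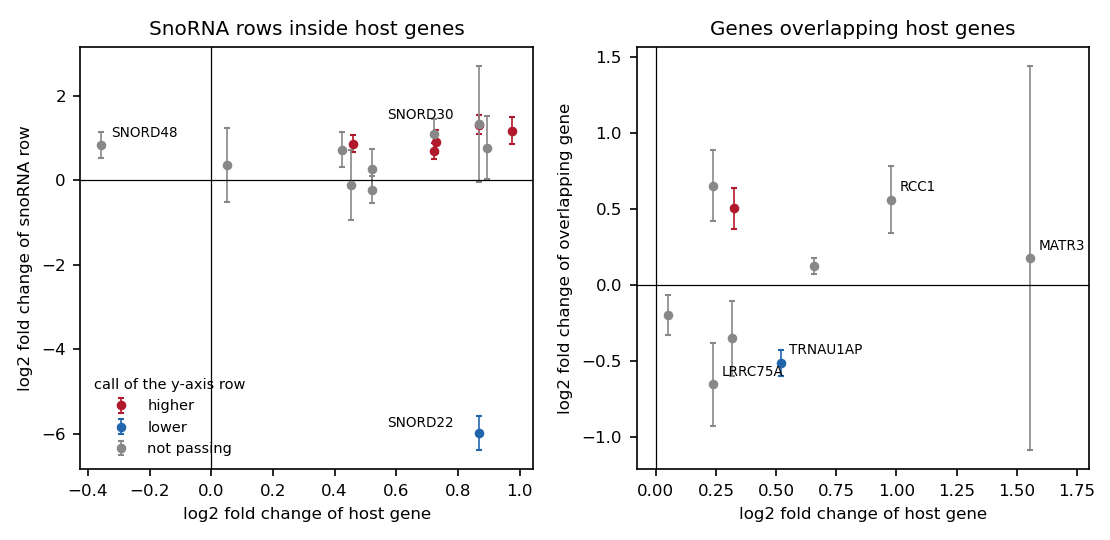
Left, log2 fold change of the 15 tested snoRNA entries (vertical axis, bars of 1 SE) against that of the host gene holding them (horizontal axis). Right, the same for genes that share bases with tested host genes; SNORD22, with 1 to 4 counts a library in siEIF4G2, has a fitted value of -5.98 under a host at 0.87, and MATR3 at 0.18 has an SE of 1.26 beside SNHG4 at 1.55.

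The proteins that bind and modify snoRNAs were read from lists chosen by function, with earlier results of these data known. The shares called in these lists and in those below therefore describe these data and give no independent test. Of the 8 core proteins of box C/D and H/ACA particles, 6 were higher (75.0%, beside 15.9% of all tested genes) and 1 lower (17.6% of all tested genes), with a median log2 fold change of 0.36. NOP56, a box C/D core protein, was at 202, 200.2 and 194 CPM in siEIF4G2 and at 131, 125 and 132 CPM in siNC (log2 0.62, edgeR adjusted p = 0.000434). NOP58, its partner, rose by a log2 fold change of 0.41 (adjusted p = 0.00539). DKC1, the pseudouridine synthase of H/ACA particles, was at 109, 118 and 124 CPM against 80.2, 78.3 and 81.5 (log2 0.55, edgeR adjusted p = 0.00158), and NHP2 rose by 0.28 (adjusted p = 0.0100). NOP10, the smallest H/ACA core protein, was lower (log2 -0.14, edgeR adjusted p = 0.0350) and was named after its value was seen. Its call was absent without each library other than siEIF4G2 replicate 2.

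Among 18 assembly and maturation factors, 6 were higher and 0 lower by edgeR, with a median log2 fold change of 0.13. The share called higher was 33.3%, beside 15.9% of all tested genes, and 0 were lower, beside 17.6%. In either direction the share called, 33.3%, was near the 33.4% of all tested genes. Leaving out 1 library gave 4 to 5 higher. Of those below 0, 0 had an unadjusted p under 0.05, and DESeq2, limma and limma-voom also called 0 lower. NOLC1, a nucleolar and Cajal body chaperone of these particles, was at 259, 238 and 244 CPM against 126, 112 and 132 (log2 1.0, SE 0.07, edgeR adjusted p = 0.000481). TCOF1, a nucleolar partner of RNA polymerase I, was at 159, 136 and 151 CPM against 79.1, 81.3 and 79.4 (log2 0.90, SE 0.07, edgeR adjusted p = 0.000514). Both were about as far apart between groups as SNHG3 and SNHG1. NAF1 and NUFIP1, assembly factors of H/ACA and box C/D particles, rose by log2 0.47 and 0.34 (edgeR adjusted p = 0.00861 and 0.0132).

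The 45 protein-coding genes that also host snoRNAs had 27 higher (60.0%, beside 15.9% of all tested genes) and 2 lower (17.6% of all tested genes), with a median log2 fold change of 0.24. They include 24 ribosomal protein genes, with 14 higher (58.3%), 0 lower (all 24 log2 values were above 0) and a median of 0.21, and 21 others, with 13 higher (61.9%), 2 lower and a median of 0.28. NCL, encoding nucleolin, was at 640.0, 656 and 631 CPM against 444, 433 and 440.2 (log2 0.55, edgeR adjusted p = 0.000389). RPSA and RPL12, ribosomal proteins of the small and large subunit, rose by log2 0.56 and 0.42 (edgeR adjusted p = 0.0008 and 0.000844). The 2 that were lower, IPO7 (log2 -0.25) and TCP1 (log2 -0.17), were named after their values were seen, and leaving out any 1 library left 1 or 0 lower. It also left 18 to 24 of the 45 called higher. NOP56 and DKC1 belong to this list and to the core proteins.

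Of the 7 symbols listed as noncoding hosts outside the SNHG naming, 3 were tested and 0 passed edgeR's test. Of these 3, 0 had an unadjusted p under 0.05 and 0 were called by DESeq2, limma or limma-voom. DANCR was at 102, 23.0 and 103 CPM in siEIF4G2 and at 37.1, 46.4 and 47.7 CPM in siNC. Its siEIF4G2 replicate 2 was the lowest of all 6, and without that library the rise passed (log2 1.23, edgeR adjusted p = 0.00347, from 0.80 and 0.294). EPB41L4A-AS1 was at 17.4, 22.3 and 10.1 CPM against 10.3, 13.9 and 12.7 and passed without siEIF4G2 replicate 3 (edgeR adjusted p = 0.0467, from 0.302). ZFAS1 was at 38.6 ± 5.09 CPM (SD, n = 3) against 36.1 ± 2.81, with overlapping groups. MEG3 and MEG8 were under 0.12 CPM in every library. LRRC75A-AS1 and C6orf48 are older symbols of SNHG29 and SNHG32, per RefSeq, and both were tested above under the newer names.

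Nonsense-mediated decay factors, which act on spliced host RNAs, had 4 higher and 1 lower of 19 and a median at 0.06 (log2). CASC3, an exon junction complex protein, was higher (log2 0.57, edgeR adjusted p = 0.00378), as were MAGOH of the same complex (0.35, adjusted p = 0.0157) and the release factor ETF1 (0.18, adjusted p = 0.0180). SMG8, a partner of the SMG1 kinase, was lower (log2 -0.23, edgeR adjusted p = 0.0149). Leaving out 1 library gave 1 to 5 higher and 0 to 2 lower. MAGOH was not called without siNC replicate 1 (0.0539), SMG8 without siEIF4G2 replicate 1 (0.0508) or siNC replicate 1 (0.0543), and ETF1 without replicate 1 or replicate 3 of either group (0.0504 to 0.0641). The share called in this list was 26.3%, beside 33.4% of all tested genes.

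The 12 regulators of 5′ terminal oligopyrimidine translation had 2 higher and 3 lower, with a median log2 fold change of -0.19. The share called higher, 16.7%, was near the 15.9% of all tested genes, and 41.7% were called in either direction beside 33.4%. DESeq2 called 4 lower. EIF4EBP2, an inhibitor of EIF4E under control of mTOR, was at 60.0, 57.4 and 60.6 CPM against 122, 124 and 119 (log2 -1.03, SE 0.04, edgeR adjusted p = 0.000207). Its groups were far apart, at a 2.05-fold fall. CNBP, a nucleic acid binding protein of such RNAs, and RPTOR, the mTORC1 scaffold, fell by 0.39 and 0.34 on the log2 scale (edgeR adjusted p = 0.00172 and 0.00578). TIA1, an RNA-binding protein that represses such RNAs under starvation, was higher (log2 0.27, edgeR adjusted p = 0.0128), and so was LARP1B (log2 0.51, adjusted p = 0.0136), a relative of LARP1 named after its value was seen. LARP1 itself, a repressor of such RNAs and likewise named after its value was seen, was at 61.2, 138 and 151 CPM against 198, 202 and 192. Its groups were apart, siEIF4G2 replicate 1 was the lowest, and it did not pass edgeR's test (log2 -0.76, SE 0.32, adjusted p = 0.119).

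**Figure D4:**
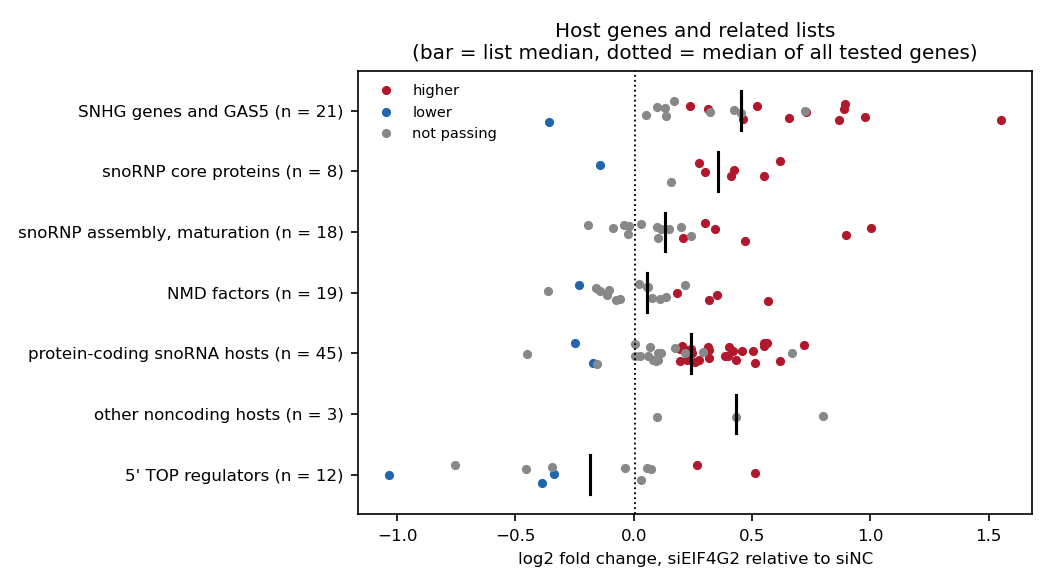
Log2 fold change of every tested gene (points, coloured by edgeR call) in the host genes and 6 related lists, with a bar at each list's median and a dotted line at the median of all tested genes, 0.01. The host gene median of 0.45 and the core protein median of 0.36 lie right of the line, and that of the oligopyrimidine regulators lies left of it at -0.19.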

How the data were processed

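Per the labels' protocols, poly(A) RNA of 6 libraries was sequenced in paired ends; HISAT2 2.0 and StringTie 1.3.0 are listed in the submitters' processing notes. Genome build, annotation and strand setting were not given in these sources. Intervals overlapped GENCODE 29 on GRCh38 for 99.9% of 58394 shared identifiers. The authors deposited 1 table with a whole-number estimated count per gene and library and, per the file headers, FPKM. Of 73 low FPKM values rescaled to reads, 26.0% lay within 0.1 of a whole read, so counts were treated as rounded estimated counts. The design had assumed raw counts or FPKM, and edgeR was kept.

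The entry of highest mean FPKM was taken per symbol, and genes with at least 0.5 FPKM in 3 libraries were kept. edgeR's quasi-likelihood test (TMM, group only, two-sided) was fitted on all 13748, with Benjamini-Hochberg adjustment over them. SE is |log2 fold change| over the root of F. edgeR 4.0.16, DESeq2 1.42.0 and limma 3.58.1 ran in R 4.3.3, and pandas 2.3.3, numpy 2.4.6 and matplotlib 3.10.9 in Python 3.11.15. The fit was tested on simulated data. Libraries of a group differed beyond sampling noise (chi-square per gene 53.6 to 66.5). Members and lists were chosen with earlier results of these data known. Named were EIF4G2, every tested member, every tested snoRNA entry inside one, overlapping genes of members described in full, and up to 4 genes of smallest p per list. Alternatives were other scalings, tests, filters, summed symbols, a replicate block and leaving out each library.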

Additional observations from a re-analysis of the deposited data

How the results depend on the processing

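Over other scalings, tests, filters and summed symbols, 9 to 12 host genes were higher and 1 lower. The 9 came with at least 2 FPKM required, which left 15 tested. Without 1 library, 10 to 11 were higher and 1 lower. Restricted to the 7 tested host genes sharing no base with another gene, 2 were higher and 0 lower. That is 28.6% called, against 57.1% of all 21 tested host genes and 33.4% of all tested genes. SNHG17 passed with DESeq2 (0.0196) and limma-voom (0.0427), and SNHG25 with limma on log2(FPKM + 1) (0.0456). With the replicate number as a block, a pairing the labels do not state, 11 host genes were higher and 1 lower, core proteins had 0 lower, and decay factors had 2 higher and 0 lower, while SNORA24 (adjusted p = 0.0563), SNORD87 (0.0546) and SNORD104 (0.0873) were not called by edgeR. Correlations between same-numbered libraries were 0.001, 0.032 and 0.05. The core proteins had 0 lower with library totals only or no filter, and 0 to 1 without 1 library. Decay factors had 2 lower with the 2 FPKM filter, and 1 to 5 higher and 0 to 2 lower without 1 library. Protein-coding hosts had 1 lower with library totals only or no filter and 0 to 1 without 1 library, and other noncoding hosts 0 to 1 higher. Of the protein-coding hosts, 22 were higher with no filter and 18 to 24 without 1 library. The sign turned in some fits without 1 library for 6 genes that were not called. Their log2 fold changes over these fits ran from -0.049 to 0.24 for SNHG15, -0.13 to 0.29 for SNHG30, -0.65 to 0.51 for SNORA78, -0.092 to 1.85 for SNORD7, -0.38 to 0.79 for MATR3 and -0.0053 to 0.18 for ZFAS1. The cause was not tested. A common coefficient of biological variation of 19.4% and 3 libraries a group limit which small changes could pass.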
